A study of Mus musculus with 4 samples.

Results

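The genes described here encode the machinery that brings nascent proteins to the endoplasmic reticulum (ER), moves them across or into its membrane, cuts off their signal peptides and attaches N-linked glycans. They were chosen by symbol, as the protein-coding entries for the signal recognition particle (SRP), its receptor, the Sec61 channel, Sec62 and Sec63, the TRAP complex and TRAM, signal peptidase, the oligosaccharyltransferase and the ER membrane protein complex (EMC). The deposited table held 44 such genes among 18200. Of these, 38 had a mean of at least 1 FPKM (fragments scaled to gene length and library size) and were tested with the other genes above that level, 8750 in all, and 6 were below it.

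Polysome RNA, which is messenger RNA carrying several ribosomes, was sequenced from mouse ADSCs labelled as wild type. There were 2 libraries labelled scrambled, which carry a control shRNA, and 2 labelled IFIT1 knockdown, which carry an shRNA against Ifit1. Replicate 1 of each group is labelled batch 1 and replicate 2 batch 2. The series title concerns translation and muscle differentiation of mesenchymal stem cells. The labels give neither age nor sex, nor whether the replicates were separate cultures or the cells a single clone, so p-values rest on a spread between 4 libraries that can be technical. Total RNA was not among the samples, so the amount of a messenger RNA and its loading with ribosomes cannot be told apart, nor can fewer cells of a type and less RNA per cell.

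The signal recognition particle is a ribonucleoprotein that binds a signal sequence as it leaves the ribosome and docks the whole ribosome at its receptor on the ER. The chain then enters the Sec61 channel, which TRAP and TRAM assist, while signal peptidase removes the signal sequence and the oligosaccharyltransferase moves a preassembled glycan onto asparagine residues. EMC inserts certain membrane segments, among them some tail anchors and the first segments of many receptors. In stromal cells, which secrete collagens and other matrix proteins, this route carries much of the protein output.

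The libraries held between 24448952 and 29825482 fragments over the genes whose FPKM could be turned back into whole fragments. Ifit1, the targeted gene, had 1.93 and 1.91 FPKM in the scrambled-labelled pair and 13.9 and 14.8 in the knockdown-labelled pair, opposite to the labels. Each direction given here therefore compares the labels only, with higher or lower meaning higher or lower under the knockdown label. Across the 8750 tested genes the differences between replicates 1 and 2 under the scrambled label mirrored those under the knockdown label (Pearson's r -0.83 across genes, which are not independent replicates). Of 8 tested markers of mesenchymal stromal cells, 6 rose and 2 fell. The surface antigen Thy1 had 3.71 and 3.68 FPKM against 31.0 and 30.3. The collagen Col1a1 had 20.0 and 20.8 FPKM against 6.28 and 6.45, and Nt5e (CD73) was near 0, with between 0 and 4 fragments in a library. Both tested adipocyte markers were lower, Pparg 3.15-fold and Fabp4 1.75-fold, and the 1 tested endothelial marker, Egfl7, was 2.79-fold higher. Of 4 tested epithelial and mesothelial markers, the keratins Krt8 and Krt18 were 9.14-fold and 6.15-fold higher, Krt19, by far the most abundant, was lower at 166 and 161 against 91.4 and 92.2 FPKM, and Msln did not pass. Of the leukocyte markers 1 tested gene was higher and 1 lower, at summed levels between 9.17 and 9.46 FPKM, and Ptprc and Adipoq had no entry in the table used here. The part of these marker differences in the results below was not tested.

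Of the 38 tested genes of the ER machinery, 11 were higher and 4 lower under the knockdown label (limma, adjusted p under 0.05), and 23 did not pass. Among all tested genes 27.4% were higher and 41.2% lower, 68.7% in either direction, against 28.9% and 10.5% of the tested ER genes, 39.5% in either direction. The share of higher genes was near the background, and the share of lower genes was below it. The groups did not overlap for 15 of the 38, and for 74.5% of all tested genes. The median log2 change was -0.01 for the ER genes and -0.02 for all tested genes. In each of the 23 that did not pass, scrambled 1 lay nearest to knockdown 2 and scrambled 2 nearest to knockdown 1.

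**Figure D1:**
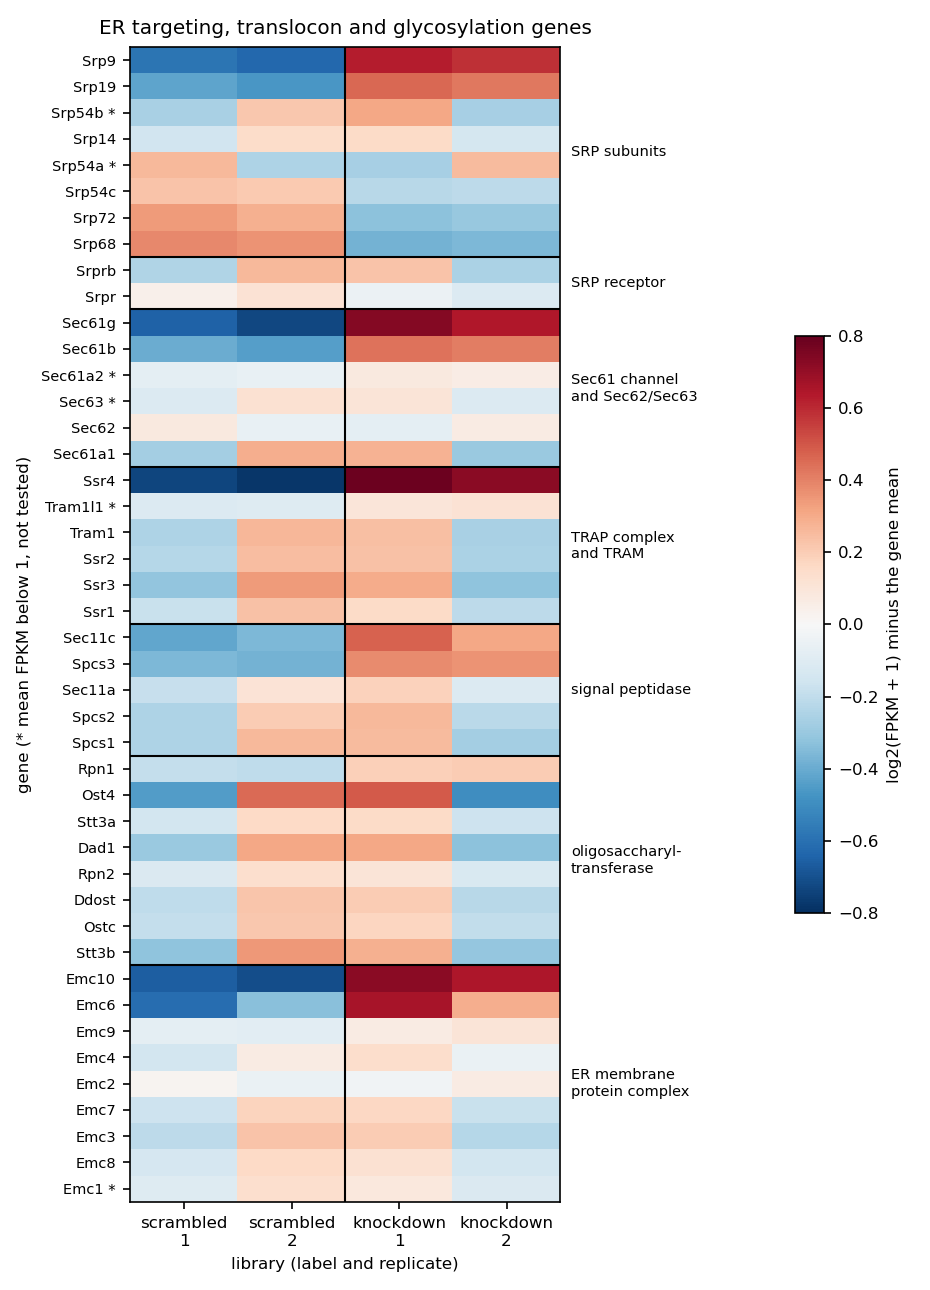
Level of each of the 44 genes in each library, as log2(FPKM + 1) minus the gene's mean over the 4 libraries (colour), with genes in rows by role and libraries in columns. Genes such as Ssr4 and Sec61g were high in both knockdown-labelled libraries, while genes such as Ost4 and Dad1 were high in scrambled 2 and knockdown 1 and low in scrambled 1 and knockdown 2.

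The subunits of SRP moved in opposite directions. Srp9 and Srp19 were higher under the knockdown label, and Srp68, Srp72 and Srp54c were lower, while Srp14 did not pass. Srp9, which with Srp14 forms the part of the particle that slows elongation, had 97.7 and 95.2 FPKM in the scrambled-labelled libraries against 228 and 222 in the knockdown-labelled ones. The pairs lay far apart, and the replicates of one label close together. The fold difference was 2.33 (log2 1.21, SE 0.03, limma adjusted p = 1.64e-04). Srp19, which helps assemble the particle on its RNA, had 55.1 and 53.4 FPKM against 102 and 99.6, a 1.86-fold difference. Srp68 and Srp72 form a heterodimer on the same RNA. Srp68 had 70.9 and 69.5 FPKM against 41.3 and 41.8, and was 1.69-fold lower (log2 -0.74, SE 0.02, limma adjusted p = 1.72e-04). Srp72 had 38.3 and 36.8 FPKM against 23.7 and 24.2, and was 1.57-fold lower. For these subunits no value of one label reached the range of the other.

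Srp14 behaved differently from its partner Srp9. It had 199 and 246 FPKM in scrambled 1 and 2 and 246 and 201 in knockdown 1 and 2, so the groups overlapped completely and the means, 222 and 223 FPKM, were nearly the same (limma adjusted p = 0.99). Scrambled 2 and knockdown 1 held the high values, with 7588 and 7672 fragments, and scrambled 1 and knockdown 2 the low ones, with 5059 and 5739.

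SRP54 binds the signal sequence and GTP. The mouse has several neighbouring copies of its gene on chromosome 12, at 55080262 to 55115367 for Srp54a, 55155104 to 55189573 for Srp54b and 55230168 to 55263836 for Srp54c in the GENCODE annotation of GRCm38, all on the plus strand. Their coding sequences are nearly the same, which limits to which of them a read from the coding part can be assigned. The rest of the annotated transcripts, which have 4498, 3646 and 3642 bases, was not compared. Over 1512 coding bases without the stop codon, Srp54a and Srp54b did not differ at any base, and Srp54c differed from both at 6, with 500 bases as the longest identical run. The stretch from coding base 876 to 965 of the annotated transcripts is shown because it holds 3 of the 6 differing bases, in capitals.
Srp54a: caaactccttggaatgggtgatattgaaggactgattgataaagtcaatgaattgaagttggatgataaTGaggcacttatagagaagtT
Srp54b: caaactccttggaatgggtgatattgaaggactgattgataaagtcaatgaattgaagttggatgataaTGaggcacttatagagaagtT
Srp54c: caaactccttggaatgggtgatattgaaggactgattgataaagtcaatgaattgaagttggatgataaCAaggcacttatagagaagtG
Srp54a had 1.27 and 0.598 FPKM in scrambled 1 and 2 and 0.580 and 1.26 in knockdown 1 and 2. Srp54b had 0.0662 and 0.483, then 0.579 and 0.0589. Where one of these copies of identical coding sequence was high the other was low. Srp54a had 173, 99, 97 and 193 fragments and Srp54b 7, 62, 75 and 7. Their fragments summed to 180, 161, 172 and 200, and their FPKM to 1.33, 1.08, 1.16 and 1.32. Both were below the level tested. Srp54c had 3.77 and 3.70 FPKM against 2.49 and 2.52, a 1.49-fold lower value (log2 -0.43, SE 0.02, limma adjusted p = 2.52e-04). The log2 change was -0.26 with libraries centred on their medians and -0.11 with the trend on transcript length taken out. No source used here says how reads that match several copies were counted, so the values of single copies are uncertain.

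Of the SRP receptor, Srpr (the alpha subunit, a GTPase that meets SRP54) had 4.29 and 4.58 FPKM against 3.97 and 3.77, 1.14-fold lower. It barely passed (log2 -0.16, SE 0.04, limma adjusted p = 0.047). It did not pass with batch as a block (adjusted p = 0.14) or without any one of the 4 libraries (adjusted p from 0.063 to 0.20), and the log2 change was 0.02 with libraries centred on their medians. Srprb, the subunit that anchors the receptor in the membrane, had 4.08 and 6.16 FPKM in scrambled 1 and 2 and 6.03 and 4.04 in knockdown 1 and 2, and did not pass.

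In the Sec61 channel the 2 small subunits rose and the pore-forming subunit did not pass. Sec61b had 402 and 390 FPKM against 716 and 703, from 7144 to 15597 fragments, a 1.79-fold difference (log2 0.84, SE 0.03, limma adjusted p = 1.96e-04). With the trend on transcript length taken out of each library, the log2 change was 0.49 and it did not pass (adjusted p = 0.060). Sec61g had 181 and 171 FPKM against 472 and 444, a 2.60-fold difference (log2 1.38, SE 0.05, limma adjusted p = 2.54e-04), and a log2 change of 1.08 with that trend taken out (adjusted p = 0.0049). Sec61a1, the subunit that forms the pore, had 10.9 and 16.6 FPKM in scrambled 1 and 2 and 16.5 and 10.7 in knockdown 1 and 2. Its group means were 13.8 ± 4.02 and 13.6 ± 4.09 FPKM (SD, n = 2 each). Its low and high libraries were again scrambled 1 with knockdown 2 and scrambled 2 with knockdown 1. Its paralogue Sec61a2, whose coding sequence is 78.8% identical, was below the level tested at 0.570 and 0.586 against 0.750 and 0.726 FPKM, with 44 to 71 fragments and no overlap between groups. Sec62 and Sec63 assist the channel with chains that arrive after synthesis and with slow ones. Sec63 was below the level tested, at 0.726, 1.03, 1.00 and 0.728 FPKM in scrambled 1 and 2 and knockdown 1 and 2. Sec62 had the mirrored order, at 1.17, 0.980, 0.952 and 1.16 FPKM, from 149 to 166 fragments.

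**Figure D2:**
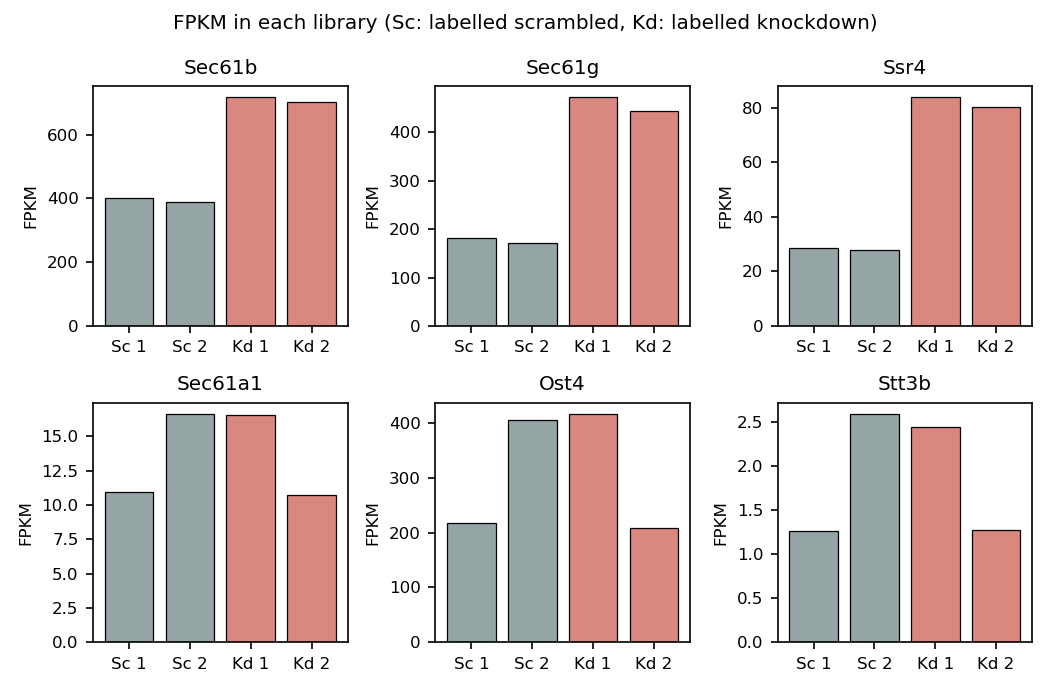
FPKM (vertical axes, each starting at 0) in the 4 libraries for 6 genes. Bars are single libraries, without error bars. The top row (Sec61b, Sec61g, Ssr4) separates by label, and in the bottom row (Sec61a1, Ost4, Stt3b) scrambled 2 and knockdown 1 are the tall bars.

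Among the TRAP and TRAM genes, Ssr4 had the largest rise of all 38 tested ER genes. Ssr4, the delta subunit of TRAP, had 28.6 and 27.7 FPKM under the scrambled label and 83.9 and 80.3 under the knockdown label, from 849, 1000, 3050 and 2680 fragments. The difference was 2.91-fold (log2 1.51, SE 0.03, limma adjusted p = 1.64e-04). The other TRAP subunits did not follow it. Ssr3 (gamma) had 11.9 and 19.3 FPKM in scrambled 1 and 2 and 18.7 and 11.8 in knockdown 1 and 2. Ssr2 (beta) had 50.6 and 70.9, then 70.1 and 49.7, and Ssr1 (alpha) had 3.07 and 4.41, then 4.11 and 2.98. In each the replicates of one label differed by 1.38 to 1.62 times, and the means of the labels by at most 1.06 times. Tram1, a membrane protein next to the channel, had 3.08, 4.83, 4.74 and 3.05 FPKM in the same order of libraries. Tram1l1, a relative of Tram1, was below the level tested at 0.251 and 0.253 against 0.445 and 0.460 FPKM, with 18 to 39 fragments.

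Signal peptidase was split in the same way. Spcs3, an accessory subunit, had 2.29 and 2.24 FPKM against 4.48 and 4.42, a 1.96-fold rise (log2 0.74, SE 0.02, limma adjusted p = 1.65e-04). Sec11c, one of the alternative catalytic subunits, had 2.03 and 2.15 FPKM against 4.59 and 4.00, a 2.06-fold rise (log2 0.78, SE 0.07, limma adjusted p = 0.0024). The other catalytic subunit, Sec11a, had 8.80 and 10.98 FPKM in scrambled 1 and 2 and 11.6 and 9.32 in knockdown 1 and 2, and did not pass (limma adjusted p = 0.83). The coding sequences of Sec11a and Sec11c were 73.4% identical with at most 16 identical bases in a row. Spcs1 (113, 160, 159 and 111 FPKM) and Spcs2 (8.52, 12.1, 12.6 and 8.75 FPKM) followed Sec11a, with scrambled 2 and knockdown 1 high.

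The oligosaccharyltransferase had 1 member that passed and 7 that did not. Rpn1 (ribophorin I), a membrane subunit that contacts substrates and the ribosome, had 3.74 and 3.68 FPKM against 5.16 and 5.20, a 1.40-fold rise (log2 0.39, SE 0.02, limma adjusted p = 2.98e-04). Its log2 change was 0.26 with libraries scaled to a common FPKM sum and 0.60 with the length trend taken out. Its partner Rpn2 did not pass, at 3.66, 4.55, 4.42 and 3.64 FPKM in scrambled 1 and 2 and knockdown 1 and 2. The 2 catalytic subunits belong to different forms of the enzyme: Stt3a works beside the channel during synthesis and Stt3b also modifies sites that were skipped. Stt3a had 0.984 and 1.46 FPKM, then 1.45 and 0.965, and Stt3b had 1.26 and 2.59, then 2.44 and 1.27. Both were low in scrambled 1 and knockdown 2, Stt3b by 2.05 times under the scrambled and 1.92 times under the knockdown label. Their coding sequences were 65.2% identical, with at most 18 identical bases in a row.

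Ost4, a minimal subunit of the oligosaccharyltransferase that spans the membrane once, differed more between replicates than any other tested ER gene on the log2(FPKM + 1) scale. Its reading frame is shown beside that of Sec61g, another short membrane protein, because these genes of similar kind had opposite patterns. Both frames are given 5′ to 3′ from the GENCODE annotation of GRCm38 without the stop codon, 111 and 204 bases, on the minus strand of chromosome 5 (gene 30905885 to 30907788) and chromosome 11 (gene 16500530 to 16508484).
Ost4: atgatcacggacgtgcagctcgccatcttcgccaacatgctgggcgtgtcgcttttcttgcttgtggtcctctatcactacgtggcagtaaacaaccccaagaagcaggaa
Sec61g: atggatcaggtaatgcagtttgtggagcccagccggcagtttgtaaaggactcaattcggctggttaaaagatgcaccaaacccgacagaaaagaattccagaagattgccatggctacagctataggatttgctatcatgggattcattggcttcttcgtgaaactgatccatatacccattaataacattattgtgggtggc
Ost4 had 217 and 405 FPKM in scrambled 1 and 2 and 416 and 209 in knockdown 1 and 2, from 2365, 5365, 5562 and 2564 fragments as the smallest whole numbers. The true fragment numbers of Ost4 are probably a multiple of these, since the implied length of 454 bases is below its annotated transcript of 1144. The means, 311 ± 133 and 312 ± 146 FPKM (SD, n = 2 each), did not pass (limma adjusted p = 0.99), and the ratio between replicates was 1.87 for scrambled and 1.99 for knockdown. Sec61g, by contrast, had close replicates under each label. Dad1, which is needed for a stable enzyme, had 11.2, 17.5, 17.5 and 10.9 FPKM in scrambled 1 and 2 and knockdown 1 and 2. Ddost had 9.47, 13.1, 12.8 and 9.34, and Ostc, which links the enzyme to the channel, 51.2, 68.0, 66.1 and 51.0.

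Of the tested EMC genes chosen by symbol, 3 rose, 0 fell and 5 did not pass. The EMC subunit Mmgt1, which the symbol rule leaves out, is given below. Emc10, a subunit on the lumenal side, had 10.4 and 10.0 FPKM against 28.7 and 27.2, a 2.74-fold rise (log2 1.37, SE 0.04, limma adjusted p = 1.82e-04). Emc6 combined both patterns: it had 31.3 and 38.0 FPKM in scrambled 1 and 2 and 76.8 and 59.2 in knockdown 1 and 2. The groups did not overlap, at means of 34.7 ± 4.75 and 68.0 ± 12.4 FPKM (SD, n = 2 each), a 1.96-fold rise (limma adjusted p = 0.021). Emc6 did not pass with batch as a block (adjusted p = 0.069), without scrambled 1 (0.077) or without knockdown 1 (0.081). Emc9 had 7.45 and 7.41 FPKM against 8.35 and 8.58, 1.14-fold higher (limma adjusted p = 0.0055). That call was lost without scrambled 1 (adjusted p = 0.059) or scrambled 2 (0.060), when no standard error was allowed below the counting error (0.15) and with a common FPKM sum (log2 0.00, adjusted p = 0.98), and the log2 change was -0.07 with the length trend taken out.

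Emc9 has a paralogue in the same place of the complex, Emc8, which had 20.0, 24.7, 24.1 and 19.8 FPKM in scrambled 1 and 2 and knockdown 1 and 2 and did not pass. Emc3, the core subunit of the insertion path, had 3.30, 4.81, 4.73 and 3.25, and Emc7 1.30, 1.91, 1.89 and 1.27. Emc4 had 30.2, 35.1, 37.0 and 32.3 FPKM. Emc2, the cytosolic scaffold, had the mirrored order at 105, 99.4, 101 and 108 FPKM. Emc1, the large lumenal subunit, was below the level tested at 0.438, 0.701, 0.638 and 0.430 FPKM.

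**Figure D3:**
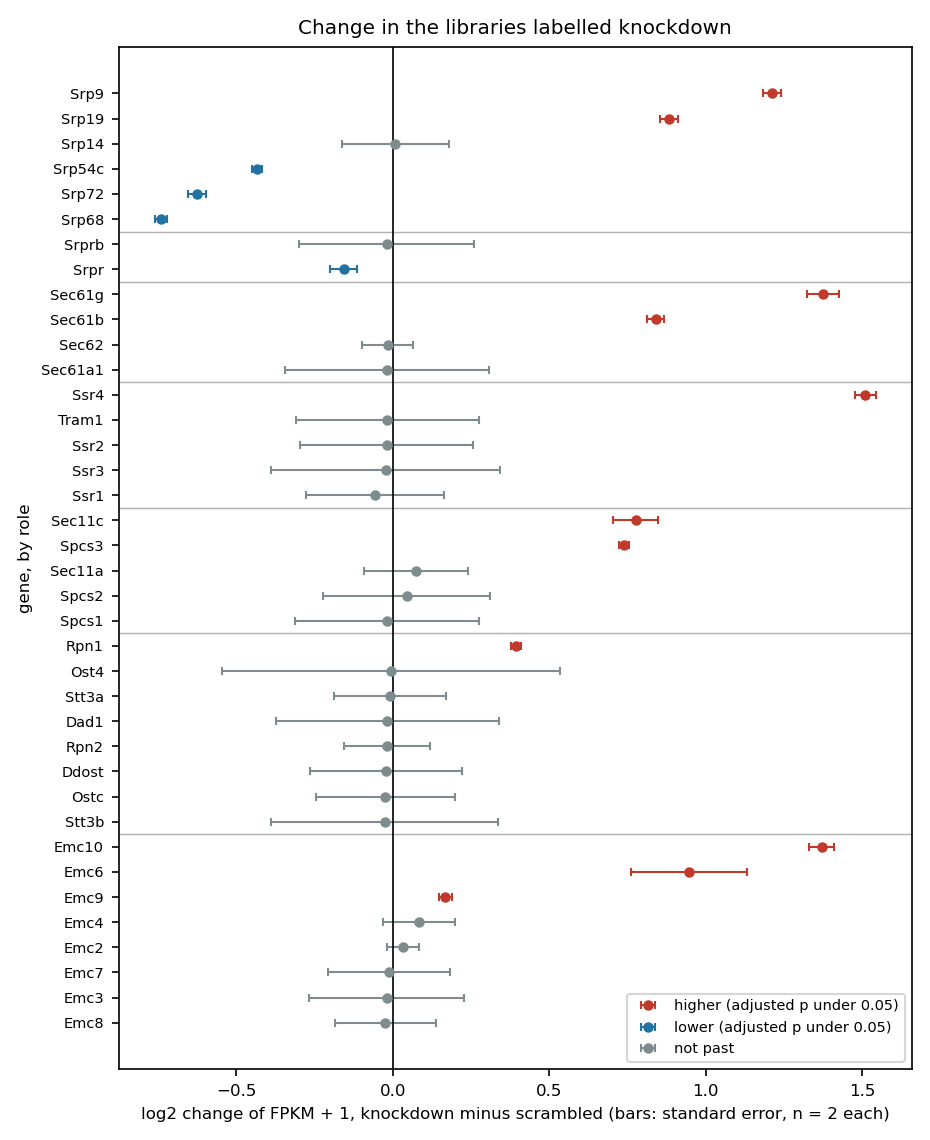
Log2 change of FPKM + 1 (horizontal axis, knockdown minus scrambled) for the 38 tested genes by role, with limma's standard error (n = 2 libraries a group) as bars. The 15 genes that passed have short bars away from 0, except Emc6, and the 23 that did not lie between -0.06 and 0.08, with standard errors up to 0.54 for Ost4.

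The 23 genes that did not pass were set apart by which libraries resembled each other. For all 23 the library nearest to scrambled 1 was knockdown 2 and that nearest to scrambled 2 was knockdown 1. Among the 2741 tested genes that did not pass in the whole table these shares were 75.8% and 73.1%. In 21 of the 23 scrambled 2 and knockdown 1 both lay above scrambled 1 and knockdown 2, and in the other 2, Sec62 and Emc2, both lay below. Among all 2741 the first order was held by 49.9% and the second by 31.2%. The median ratio of scrambled 2 to scrambled 1 was 1.42 and that of knockdown 1 to knockdown 2 was 1.44. These orders are a description: a gene with such values cannot pass the main comparison of the labels, which has no block. With scrambled 1 paired with knockdown 2 and scrambled 2 with knockdown 1, a pairing chosen after the data were seen, 5 did pass. These were Emc2, Emc4, Sec11a, Spcs2 and Ssr1.

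The differences were also set against counting error, the spread that fragment numbers alone give. Between scrambled 1 and 2, 21 of the 23 genes differed by more than 3 counting SDs, and between knockdown 1 and 2, 22 did. Between scrambled 1 and knockdown 2, and between scrambled 2 and knockdown 1, 0 of the 23 did. The median difference was 0.284 and 0.455 counting SDs in these last pairs, where counting error alone gives 0.674. For these genes libraries of different labels lay within 3 counting SDs of each other in those pairs, and most libraries of one label lay beyond that. Over all tested genes the median was 0.535 counting SDs between the scrambled and 0.668 between the knockdown libraries. Across the labels in those pairs it was 6.62 and 7.16. That is an unlike set, since the 23 were picked by not passing and 68.7% of all tested genes passed. Over all 38 tested ER genes the medians were 4.30 and 4.54 within the labels and 0.719 and 1.09 across them.

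**Figure D4:**
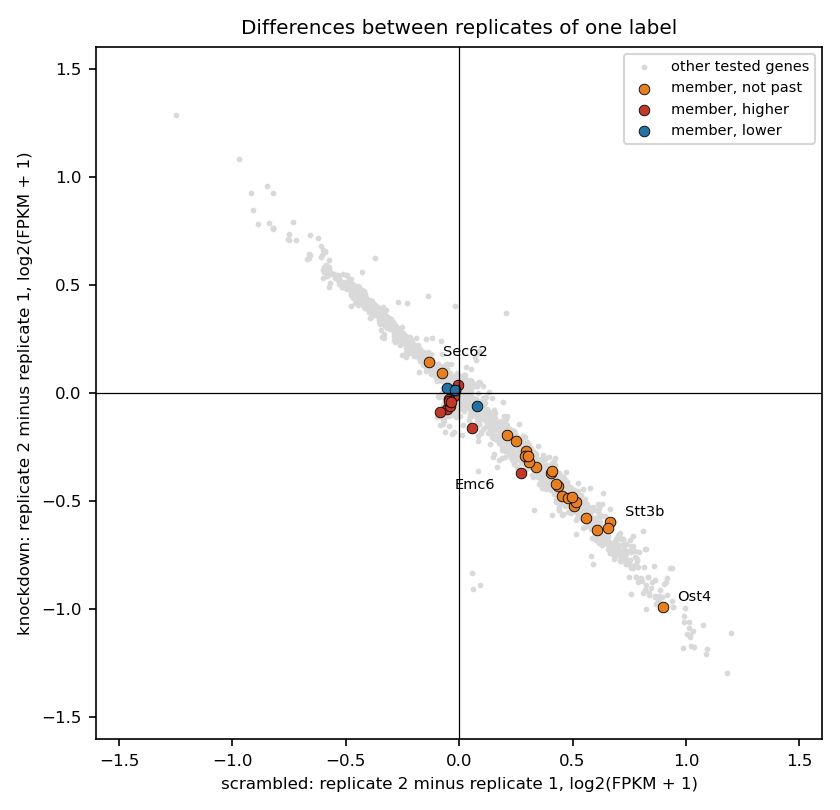
Replicate 2 minus replicate 1 on log2(FPKM + 1) under the scrambled (horizontal) and knockdown (vertical) label, for 8712 other tested genes (grey; 6 lie outside the axes) and the 38 ER genes (coloured by call). The ER genes that did not pass run from Sec62 in the upper left to Ost4 in the lower right, and those that passed lie near 0, apart from Emc6 and, less far, Sec11c.

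Compared by batch, the same values give opposite answers. In batch 1 the median log2 change of the 38 genes was 0.44 and in batch 2 it was -0.31, where all tested genes had -0.13 and -0.22. The 15 genes that passed had the same sign in both batches, and the 23 others had opposite signs. This split largely follows from the call, since opposite signs mean that the groups overlap. Of the 2741 tested genes that did not pass in the whole table, 81.2% had opposite signs. The labels place the high libraries scrambled 2 in batch 2 and knockdown 1 in batch 1, so the order of these genes does not follow the batch label. By summed FPKM the ER machinery took 0.303% and 0.348% of scrambled 1 and 2 and 0.434% and 0.382% of knockdown 1 and 2. These sums rest on a few abundant genes. Sec61b and Sec61g had 402 and 181 of 1810 FPKM in scrambled 1 and 716 and 472 of 3046 in knockdown 1. The median log2 change over the 38 genes was -0.01.

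Length differed between the genes that rose and the rest. The length implied by the FPKM steps had a median of 1721 bases for the 11 genes that rose and 4103 for the 4 that fell. It was 3939 for the 23 that did not pass and 4024 for all tested genes. Implied lengths exceeded the annotated transcript for most ER genes, by 1.34 times for each of Srp68, Sec62 and Spcs3, 2.00 for Sec11c and 3.41 for Emc6. They fell below it for a few, such as Srpr at 0.26 times. The implied lengths were scaled by the fragments of the solved genes only. A factor shared by all genes can come from that scale, which was not tested. The trend on length was taken on these implied lengths. With the trend on length taken out of each library, 9 ER genes were higher and 4 lower.

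An interferon response element was looked for upstream because Ifit1, the targeted gene, is induced by interferon, and ER stress elements because they are known to drive many ER genes. RefSeq promoter sequences (GRCm38.p6) matched 34 of the 44 genes by gene ID, and the 250 bases before each start were searched on both strands. GAAA repeated after any 2 bases occurred in 4 of the 34 (11.8%) and in 210 of 7114 matched tested genes (2.95%). The 34 include genes below the level tested, which the 7114 leave out. Among all 27025 genes with a promoter sequence the share was 3.46%. The 4 windows are shown with the match in capitals, read along the gene's strand.
Sec61a2: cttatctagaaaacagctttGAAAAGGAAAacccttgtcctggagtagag
Emc4: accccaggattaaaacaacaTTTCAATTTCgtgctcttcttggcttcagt
Ddost: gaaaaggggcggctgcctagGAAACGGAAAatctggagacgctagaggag
Stt3a: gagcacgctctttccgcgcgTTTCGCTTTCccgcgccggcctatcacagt
They lie at chr2:5895550-5895599 and chr2:112368216-112368265 (minus strand), chr4:138304489-138304538 (plus strand) and chr9:36767812-36767861 (minus strand). None of the 4 genes passed: Emc4, Ddost and Stt3a had the order with scrambled 2 and knockdown 1 high, and Sec61a2 was below the level tested. The ER stress element, CCAAT and CCACG with 9 bases of any kind between them, was found in 0 of the 34 windows and 0.155% of the tested genes, and TGACGTGG, a target of XBP1, in 0 and 0.942%. CCACG alone was in 16 of 34 (47.1%) and 48.6%, and CCAAT alone in 14 of 34 (41.2%) and 41.9%. A match is only a match of letters.

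Other genes of the pathway were read from lists of neighbouring steps. Of 9 tested factors that act on nascent chains at the ribosome exit, 1 rose, 7 fell and 1 did not pass. The N-myristoyltransferase Nmt1 had 48.0 and 47.4 FPKM against 24.9 and 25.3, the N-terminal acetyltransferase subunit Naa15 had 12.0 and 12.0 against 6.88 and 7.02, and the methionine aminopeptidase Metap1 had 44.3 and 43.3 against 24.7 and 24.9. These 3 were 1.90, 1.72 and 1.77 times lower with no overlap. Of 7 tested genes of the GET route, which inserts tail-anchored proteins, 2 rose, 2 fell and 3 did not pass. Get4 had 123 and 122 FPKM against 174 and 177, and rose 1.43-fold. Get3, the ATPase of the route, had 203 and 202 against 240 and 246 FPKM, but did not pass with a common FPKM sum (log2 0.08, adjusted p = 0.33), nor with quantile normalization (adjusted p = 0.055) or the length trend taken out (adjusted p = 0.20). Bag6 had 47.6 and 45.2 FPKM against 35.4 and 37.4, and did not pass with median-centring (adjusted p = 0.082) or the length trend taken out (adjusted p = 0.29).

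Oligosaccharyltransferase subunits outside the symbol rule had 2 of 3 tested members higher. Tusc3, an oxidoreductase subunit of the Stt3b form, had 1.61 and 1.57 FPKM against 2.91 and 2.89, and rose 1.83-fold. Tmem258 had 184 and 218 FPKM against 344 and 282 and rose 1.56-fold (limma adjusted p = 0.036). It did not pass with batch as a block (adjusted p = 0.10) or without any one of the 4 libraries (adjusted p from 0.054 to 0.14). Krtcap2 did not pass, at 39.8, 60.2, 67.9 and 43.8 FPKM in scrambled 1 and 2 and knockdown 1 and 2. Of 8 tested genes listed under the multipass translocon and the SND route, 2 rose, 1 fell and 5 did not pass. The 5 include Mmgt1, which is an EMC subunit outside the symbol rule and belongs to neither route. It had 1.25 and 1.64 FPKM against 1.29 and 1.04, and is part of the list medians given below. Ncln rose 1.94-fold from 3.99 and 3.85 to 7.70 and 7.48 FPKM, and Tmem208 rose 1.84-fold from 7.42 and 7.22 to 13.6 and 13.4. Nomo1, a subunit of the multipass translocon, fell from 3.97 and 3.98 to 2.73 and 2.81 FPKM.

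The synthesis of the glycan donor had members in each direction, with 7 higher, 6 lower and 9 not past of 22 tested. Gfpt1, the first enzyme of the hexosamine route, fell from 10.3 and 10.1 to 4.66 and 4.73 FPKM, 2.17-fold. Pmm2, the phosphomannomutase of GDP-mannose synthesis, went from 32.1 and 31.9 down to 16.9 and 17.2 FPKM. The glucosyltransferase Alg10b went from 1.93 and 1.92 FPKM down to 0.939 and 0.964. These were the 3 with the smallest p of the list. Of 12 genes of glycan trimming and the lectin chaperones, 2 rose, 0 fell and 10 did not pass. The membrane lectin chaperone Canx rose from 4.40 and 4.35 to 5.97 and 6.04 FPKM and the cargo lectin Lman2 from 9.50 and 9.98 to 14.9 and 13.9. Edem1, which marks misfolded glycoproteins for degradation, did not pass at 1.73 and 2.14 against 1.46 and 1.24 FPKM (limma adjusted p = 0.068). It did pass with a common FPKM sum (adjusted p = 0.0071) and without scrambled 1 (adjusted p = 0.043).

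Of 12 tested genes listed as folding factors of the ER lumen, 4 were higher, 0 lower and 8 did not pass. The 4 include Serp1, a membrane protein associated with the Sec61 channel and not a lumenal factor. It rose 1.24-fold, from 154 and 153 to 189 and 192 FPKM, and is part of the list medians given below. Sdf2l1, a partner of the lumenal Hsp70, rose 2.07-fold from 14.8 and 14.4 to 30.6 and 30.0 FPKM. The co-chaperone Dnajb9 rose 2.93-fold from 0.649 and 0.631 to 1.93 and 1.82, and the prolyl isomerase Ppib 1.52-fold from 70.1 and 68.6 to 105 in both libraries. Of 9 genes of the unfolded protein response, 2 rose, 3 fell and 4 did not pass. The transcription factor Xbp1 fell from 54.7 and 54.6 to 39.3 and 40.1 FPKM, the ER membrane protein Herpud1 from 31.9 and 31.6 to 20.9 and 21.3 FPKM, and Mbtps1, the protease that cleaves ATF6, from 5.07 and 5.28 to 2.40 and 2.52. Of 11 genes of ER-associated degradation, 3 rose, 4 fell and 4 did not pass. Vcp, the ATPase that pulls substrates out of the membrane, fell 2.16-fold from 181 and 178 to 82.4 and 83.6 FPKM. Ngly1, which removes glycans from them, fell 1.79-fold, and Derl2, a membrane subunit, rose 1.90-fold from 2.25 and 2.20 to 4.23 and 4.20 FPKM.

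In 6 of these 9 lists the median log2 change was above 0.1 in batch 1 and below -0.1 in batch 2. For ER lumen folding factors the medians were 0.34 and -0.15, for glycan trimming 0.32 and -0.26, and for the multipass translocon 0.63 and -0.38. The ribosome-exit factors had medians of -0.66 and -0.63, and the oligosaccharyltransferase subunits outside the rule 0.75 and 0.37. Of the named genes of these lists, several log2 changes moved by more than 1.5 times under another setting and kept their direction and call. With the length trend taken out they were -0.14 for Nomo1 (from -0.40), -0.36 for Naa15 (from -0.71), -0.37 for Alg10b (from -0.58), -0.62 for Gfpt1 (from -0.97), -0.55 for Mbtps1 (from -0.83) and -0.76 for Xbp1 (from -0.45). In that setting Tmem258 had 0.28 (from 0.63), Ppib 0.33 (from 0.60) and Lman2 0.78 (from 0.52). With a common FPKM sum Canx had 0.24 (from 0.38) and Get4 0.33 (from 0.52), and with a pseudocount of 0.1 Dnajb9 had 1.42 (from 0.81).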

How the data were processed

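The authors deposited one table of FPKM values per gene and library, named as FPKM per the labels. Per the submitters' processing notes the builds GRCm38, mm10 and GRCm39 were used, with no role stated; no source used here gives the aligner, counter, annotation or strandedness. All 4 value columns were used. The 8750 of 18200 genes whose mean FPKM reached 1 were taken as log2(FPKM + 1) and compared with limma 3.58.1 under R 4.3.3 (a variance trend, no batch term; about 3.06 degrees of freedom), two-sided, with Benjamini-Hochberg adjustment over all tested genes and a threshold of 0.05. Log2 changes on this scale understate those of low genes. Because each library's FPKM step in whole fragments, the smallest whole fragments could be solved for 8693 tested genes (99.3%). In data simulated for genes already solved, with the same library depths given to the solver, 600 of 600 smallest numbers were recovered. That check could not show wrong depths or multiples. True numbers can be a multiple of the smallest ones. The lengths implied for Srpr, 785 bases, Ost4, 454, and Tram1l1, 2976, are below their annotated transcripts of 2993, 1144 and 3889. Their counting errors are therefore likely overstated. The members, the gene lists and the motifs were chosen with earlier results of these data known. Members were named by role, and the 3 genes with the smallest p in each list of neighbouring steps; genes singled out beyond this were chosen after their values were seen. The replicate number is the batch of the labels; pairing was checked by the correlation of the replicate differences across genes, r = -0.83, where shared batches give a positive value, and the block is an alternative. Reads of near-identical copies, pseudogenes and overlapping genes may be shared. Python 3.11.15, pandas 2.3.3, numpy 2.4.6, biopython 1.88 and matplotlib 3.10.9 were used.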

Additional observations from a re-analysis of the deposited data

Results flagged for a closer look

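The difference between the libraries labelled knockdown and scrambled had opposite signs in batch 1 and batch 2 for 23 of the 38 tested ER genes, 60.5%, against 25.4% of all tested genes. These 23 are the ER genes that did not pass, and the signs largely follow from that call. Of all tested genes that did not pass, 81.2% had opposite signs. The difference between the batches was not tested, since each batch holds 1 library of each label.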

How the results depend on the processing

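With batch as a replicate block, 10 ER genes were higher and 3 lower, and 2205 and 3417 of all genes; Emc6, Srpr and, outside the symbol rule, Tmem258 lost their calls, and no other named call changed. Pairing scrambled 1 with knockdown 2 and scrambled 2 with knockdown 1, chosen after the data were seen, gave 15 and 5 ER genes and 2962 and 4282 of all genes. Without the filter 3819 genes were higher, and with a mean of at least 5 FPKM 1583 were higher, 2213 lower and 2 ER genes lower, since more or fewer genes were tested (18200, or 5490 with 25 ER genes). Leaving out one library at a time, with the lone library of a label assumed to vary like the others, gave 9 to 11 ER genes higher and 3 lower, 2187 to 2283 genes higher and 3432 to 3460 lower. It moved the median log2 change of the ER genes from -0.18 without scrambled 1 or knockdown 1 to 0.22 without scrambled 2 or knockdown 2. Of the 15 ER genes that passed, 2 changed direction, Emc9 to -0.0699 (adjusted p = 0.48) with the length trend taken out and Srpr to 0.0160 (adjusted p = 0.74) with median-centring; the cause was not tested. Of the 23 that did not pass, whose changes lay near 0, 18 changed sign while still not past with median-centring, 15 with quantile normalization, 16 with the length trend taken out and 5 with a common FPKM sum, as did 5 or 18 without one library. Median-centring moved the median of all genes from -0.02 to 0.15. With a pseudocount of 0.1 or without the variance trend all 38 calls stayed. SEs below the counting error are possible with 2 libraries a group; with it as the smallest standard error, Emc9 and Srpr lost their calls among the ER genes.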

Other observations

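Other genes of the same compartments were read by the Gene Ontology terms in the authors' deposited table. Replicate 2 minus replicate 1 had a median log2 difference of 0.28 under the scrambled and -0.28 under the knockdown label over the 38 tested ER genes of the report. Over 241 other tested genes with the term endoplasmic reticulum membrane the medians were 0.00 and -0.03, and 54.8% of them passed the comparison of the labels, 85 higher and 47 lower. Over 37 other genes of the ER lumen the medians were 0.05 and -0.05, with 14 higher and 4 lower. Over 426 genes of the mitochondrial inner membrane they were -0.01 and 0.01, with 154 higher and 120 lower. Some lists of neighbouring steps came close to the ER machinery: 0.24 and -0.23 for glycan trimming, 0.21 and -0.21 for ER lumen folding factors. The oligosaccharyltransferase subunits outside the rule had 0.25 and -0.28, and the multipass translocon 0.12 and -0.10. Others lay near 0, with -0.0006 and -0.005 for glycan donor synthesis and -0.007 and 0.007 for ER-associated degradation. Of the 27 tested ER machinery genes with the term endoplasmic reticulum membrane, 29.6% passed, 7 higher and 1 lower, where 68.7% of all tested genes did. These classes and lists were compared after the values had been seen, as a description with no test.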
